A study of Mus musculus with 9 samples.

Results

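The genes described here encode 8 receptors through which circulating or local hormones act on bone-forming cells and 1 ligand of these receptors. They were chosen by symbol, and no measured value entered the rule, but earlier results of these data were known when they were chosen. All 9 of the symbols Pth1r, Pthlh, Vdr, Esr1, Nr3c1, Ghr, Thra, Rarg and Lepr were found among the 40548 genes of the deposited day 0 and day 7 tables and in the day 4 tables. Of the 8 receptors, 3 sit in the cell membrane (Pth1r, Ghr and Lepr) and 5 are nuclear receptors (Vdr, Esr1, Nr3c1, Thra and Rarg), that is, transcription factors that are switched by their hormone.

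Cell-surface hormone receptors pass a signal to enzymes inside the cell: the parathyroid hormone receptor acts through G proteins and cyclic AMP, whereas the growth hormone and leptin receptors act through the kinase JAK2 and STAT transcription factors. Nuclear receptors bind their hormone inside the cell and change transcription directly, in several cases as pairs with a retinoid X receptor. In bone, parathyroid hormone, vitamin D, estrogen, glucocorticoids, growth hormone, thyroid hormone, retinoic acid and leptin are all known to act on osteoblasts or their precursors.

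RNA was sequenced from cells of the calvaria, the flat bones of the skull, of C57BL/6 mice at postnatal day 2-3, as the sample records give them. The study's methods name the strain C57BL/6J and give a wider neonatal age range, and they describe both wild type and Col1a1*2.3-GFP mice, with no statement of which gave these libraries. The cells were grown to confluence and collected either without differentiation (day 0) or after 4 or 7 days in mineralization medium, which held ascorbic acid and β-glycerol phosphate. There were 3 libraries per stage and 9 in all, which the study calls biological replicates, and how many animals were pooled for a library was not given in the sources used here. The records name no genetic change, hormone or inhibitor that distinguishes the groups. Per the sample records, cells that had mineralized were taken up with collagenase and cells that had not were taken up without it, so harvest and stage cannot be told apart.

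The reads counted on genes numbered from 7741204 to 14013219 per library at day 0, from 32820610 to 37306090 at day 4 and from 10675858 to 15622755 at day 7. Some libraries stood apart. The features Gm42418, Lars2, Mir6236 and Plekhh2 together took between 1.51% and 17.6% of the reads of a library, most in day 0 replicate 3 (17.6%) and day 7 replicate 2 (11.3%), which lowers the level of every other gene there. Osteoblast markers marked the cultures as labelled: 10 of 11 rose from day 0 to day 7, and their summed level went from 4498 to 5272 RPKM (reads normalized to gene length and library total) to between 14780 and 18630 RPKM. Markers of other cells were present at lower sums. Of 12 macrophage and osteoclast markers, 10 could be tested, of which 9 rose and 1 fell, and their sum went from between 110 and 144 RPKM at day 0 to between 259 and 264 RPKM at day 7. Most of that sum was Ctsk at a mean of 120 RPKM at day 0 and 232 RPKM at day 7. Smaller levels that also rose were those of Cd68 (3.8 and 6.9 RPKM), Acp5 (0.75 and 6.6), Tyrobp (2.5 and 6.0) and Csf1r (0.96 and 1.9). The leukocyte marker Ptprc rose as well, with 0.0366 and 0.129 RPKM, and Mmp9 was the marker that fell (0.71 and 0.34 RPKM). Dcstamp and Ocstamp, which could not be tested, reached at most 0.0367 and 0.228 RPKM in a library. The marker counts of this paragraph stand beside 12.6% higher and 18.6% lower at day 7 over all genes tested. Sums of endothelial markers lay between 1.60 and 2.81 RPKM, with 2 of 8 at 0 in all libraries, and those of adipocyte markers between 2.96 and 6.31 RPKM, with 2 of 7 at 0 in all libraries. For chondrocyte markers the sums lay between 178 and 501 RPKM at day 0, 146 and 244 RPKM at day 4, and 202 and 324 RPKM at day 7. Of 7 tested, 3 rose and 3 fell. Among them, the mean of Col11a2 went from 14.6 RPKM at day 0 to 141 RPKM at day 7. That of Col2a1 went from 239 to 53.5 RPKM, with 420 RPKM in day 0 replicate 1. Perivascular stromal markers summed to between 105 and 153 RPKM, with 1 of 7 higher and 2 lower, and skeletal muscle markers to between 2.27 and 10.5 RPKM, with both of the 2 tested genes higher. The part of these cells in the receptor levels was not tested. In bulk RNA, fewer cells of a type and less RNA per cell cannot be told apart.

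Levels below are RPKM, given as mean ± SD of 3 libraries. The comparison of day 7 with day 0 used limma, which fits a linear model per gene and shares variance information between genes, on log2(CPM + 0.5), where CPM scales the reads of a gene to the library total. Genes averaging under 1 CPM in these 6 libraries were left out, which left 12712, and a gene was called at an adjusted p (Benjamini-Hochberg) under 0.05. Fold changes from this fit are log2 values, and low genes appear to change less than they did. Across all genes tested 31.2% passed, with 12.6% higher and 18.6% lower at day 7, and the median log2 fold change was -0.11. Day 4 was deposited in a table of its own and sequenced more deeply, and it was set beside the other stages without a test. An exact permutation test of 3 libraries against 3 cannot give a p below 0.1.

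**Figure D1:**
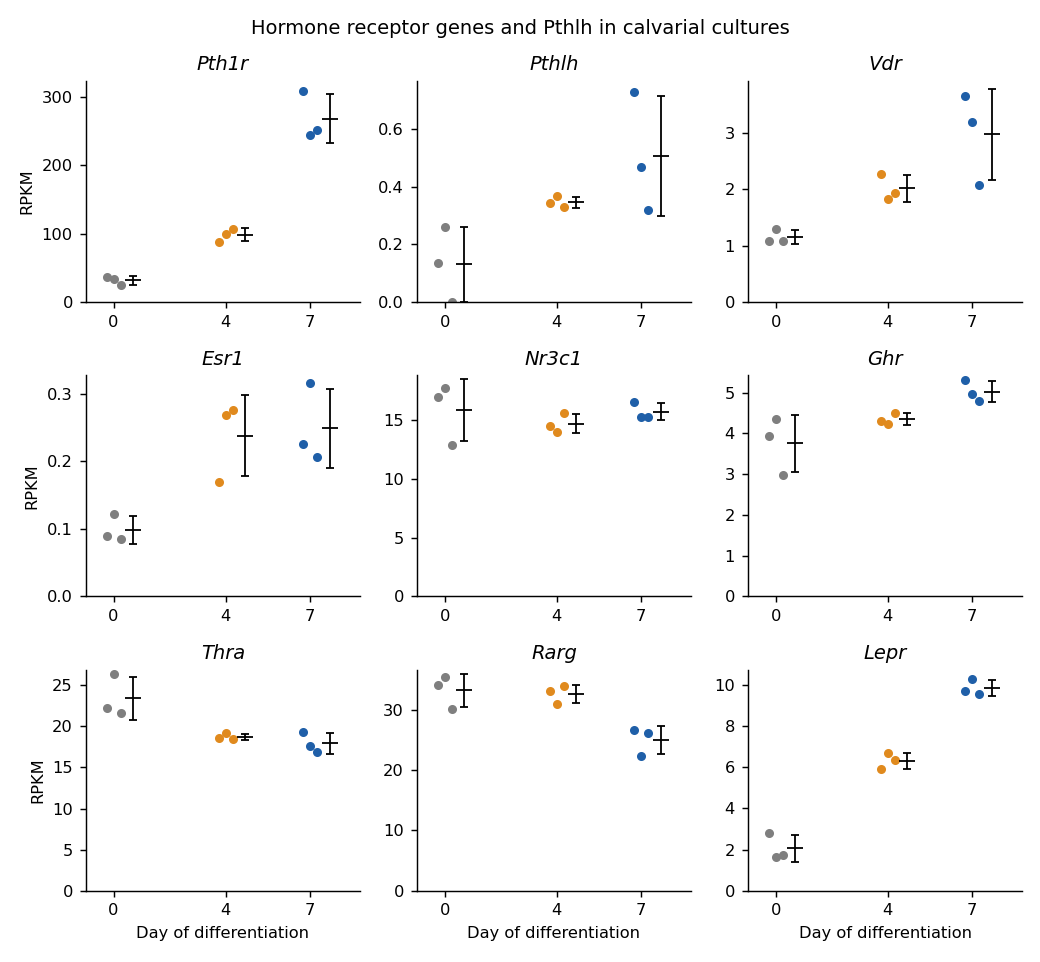
RPKM of the 9 genes (linear axes from 0, a scale of its own for each gene) against the day of differentiation; points are libraries, and the black bar to their right is the mean with its SD (n = 3). Pth1r and Lepr climbed at each step, to 268 and 9.83 RPKM at day 7, whereas Nr3c1 lay between 12.9 and 17.8 RPKM in all 9 libraries.

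Among the 8 receptors that could be tested, 5 were higher at day 7 than at day 0 (Pth1r, Lepr, Vdr, Esr1 and Ghr), 1 was lower (Rarg) and 2 did not pass (Nr3c1 and Thra). Pthlh was below the filter on low values. Over all genes tested, 12.6% were higher and 18.6% lower. The 4 receptors with the largest changes, Pth1r, Lepr, Vdr and Esr1, passed in every one of the 20 alternative analyses that could test them, whereas the calls for Ghr and Rarg each held in 13 of 20.

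Pth1r encodes the receptor for parathyroid hormone and for parathyroid hormone-related protein, the target of the bone anabolic parathyroid hormone drugs. The gene lies at chr9:110722085-110747145 on the minus strand of GRCm38. Its level was 36.9, 33.1 and 24.7 RPKM in the day 0 libraries, 88.1, 99.1 and 107 RPKM in the day 4 libraries, and 309, 244 and 252 RPKM in the day 7 libraries. The libraries of the 3 stages did not overlap, and day 0 replicate 3 was the lowest of all. The mean rose from 31.6 ± 6.24 RPKM at day 0 to 98.1 ± 9.54 RPKM at day 4 and 268 ± 35.6 RPKM at day 7. Day 4 was thus 3.11-fold above day 0, and day 7 was 2.74-fold above day 4. The log2 fold change from day 0 to day 7 was 3.09 ± 0.16 (SE, 95% interval 2.77 to 3.42, limma adjusted p = 1.605e-21), which on the RPKM scale is an 8.50-fold higher mean. In GENCODE M21 the exons of Pth1r, 2925 bases in all, share 95 bases (3.25%) with Myl3 on the opposite strand. The deposited CPM and RPKM imply a shorter counted length of 2.484 kb, so whether the counted exons hold these 95 bases is not known. Whether counting used strand is not given in the sources used here.

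Transcription of Pth1r can begin at several places, and the RefSeq promoter table for GRCm38.p6 lists 3 start sites for the gene. The 250 bases before each are printed because this gene had the largest rise of the 9 and because its promoters differ in composition. Capitals mark matches, on either strand, to the GC box GGGCGG or to the core of the cyclic AMP response element, TGACG:
Pth1r start 1 (chr9:110747146-110747395, minus strand): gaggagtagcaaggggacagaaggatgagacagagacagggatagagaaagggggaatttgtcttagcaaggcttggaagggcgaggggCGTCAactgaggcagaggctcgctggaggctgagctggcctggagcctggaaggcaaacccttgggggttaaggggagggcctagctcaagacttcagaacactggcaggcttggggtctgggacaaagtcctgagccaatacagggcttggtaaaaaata
Pth1r start 2 (chr9:110743687-110743936, minus strand): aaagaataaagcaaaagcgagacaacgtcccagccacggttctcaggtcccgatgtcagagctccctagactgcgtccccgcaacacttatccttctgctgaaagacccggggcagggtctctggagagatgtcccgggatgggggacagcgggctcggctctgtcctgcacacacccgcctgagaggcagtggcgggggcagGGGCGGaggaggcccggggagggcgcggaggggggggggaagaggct
Pth1r start 3 (chr9:110742611-110742860, minus strand): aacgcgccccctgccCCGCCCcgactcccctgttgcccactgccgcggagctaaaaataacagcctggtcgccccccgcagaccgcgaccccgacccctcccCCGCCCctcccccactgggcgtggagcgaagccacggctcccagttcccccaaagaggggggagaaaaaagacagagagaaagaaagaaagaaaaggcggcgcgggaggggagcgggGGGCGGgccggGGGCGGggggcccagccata
The upstream promoter had 3 CpG dinucleotides and a GC content of 56.0%, the middle one 16 and 65.6%, and the downstream one 22 and 70.4%. Over all 32851 promoters of the table the medians were 6 CpG and 52.4%. The only TGACG match was in the upstream promoter, and this motif was present in 17.8% of all promoters. GC boxes numbered 0, 1 and 4 from upstream to downstream, and 32.7% of all promoters held at least 1. No match to the RUNX core TGTGGT (14.0% of all promoters), to the nuclear receptor hexamer AGGTCA (14.0%) or to the TATA box TATAAA (12.4%) lay in these 3 windows. The deposited values are totals per gene, and they do not tell which start site was used.

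Pthlh, which encodes parathyroid hormone-related protein, the local ligand of this receptor, lies at chr6:147252101-147264183. It was barely detected. The day 0 libraries held 3, 5 and 0 reads on it, the day 4 libraries 18, 22 and 19, and the day 7 libraries 16, 8 and 8. In RPKM, which corrects for the greater depth of day 4, its level was 0.134, 0.261 and 0 at day 0, 0.342, 0.368 and 0.329 at day 4, and 0.731, 0.467 and 0.319 at day 7. The day 4 and day 7 libraries thus all lay above those of day 0, and they overlapped each other. Counts this low make the size of the difference uncertain, and the exact permutation p for day 7 against day 0 was 0.1, the lowest possible. Pth, encoding parathyroid hormone itself, had 0 reads in all 9 libraries, and Pth2r, encoding the other parathyroid hormone receptor, had at most 8 reads in a library.

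Downstream of the receptor, the list of PTH signalling genes had 30 testable members of 32, of which 6 were higher, 6 were lower and 18 did not pass, with a median log2 fold change of -0.05. Counts of this and the later lists stand beside 12.6% higher and 18.6% lower over all genes tested. Arrb1, whose product β-arrestin 1 binds activated receptors and takes part in their desensitization, had the largest rise. Its level was 1.05, 1.07 and 0.809 RPKM in the day 0 libraries, then 5.66, 10.5 and 9.19 RPKM (day 4) and 7.70, 5.94 and 4.55 RPKM (day 7). Day 4 and day 7 overlapped, and both lay above day 0 (log2 fold change from day 0 to day 7 2.56 ± 0.18, SE, limma adjusted p = 1.452e-16). Tnfsf11, which encodes RANKL, the osteoclast-forming cytokine that parathyroid hormone induces, was at 0.893, 0.449 and 0.693 RPKM at day 0, at 7.74, 4.10 and 7.06 RPKM at day 4, and at 2.59, 2.22 and 2.12 RPKM at day 7. All its day 4 libraries were above all its day 7 libraries, which in turn were above day 0 (1.52 ± 0.24, adjusted p = 1.852e-06). Of the cyclic AMP-inducible genes of the list, the nuclear receptor genes Nr4a2 (0.90 ± 0.19) and Nr4a3 (1.00 ± 0.28) and Rgs2 (0.94 ± 0.22), an inhibitor of G protein signalling, rose and had the same order of stages as Tnfsf11, whereas Nr4a1 (0.38 ± 0.19, adjusted p = 0.134) and Crem (0.53 ± 0.24, adjusted p = 0.0852) did not pass. Nr4a2 had 1.93 ± 0.27 RPKM at day 0, 8.01 ± 0.19 RPKM at day 4 and 3.71 ± 0.19 RPKM at day 7.

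The genes that fell included Prkacb, a catalytic subunit of the cyclic AMP-dependent kinase PKA, with 29.0 ± 3.02 RPKM at day 0, 19.8 ± 1.23 RPKM at day 4 and 17.6 ± 0.94 RPKM at day 7 (log2 fold change -0.72 ± 0.15, adjusted p = 2.054e-04). The regulatory subunits Prkar2b (-0.80) and Prkar1a (-0.49), the G protein gene Gnaq (-0.62), the phosphodiesterase gene Pde3a (-1.05) and the kinase gene Sik2 (-0.47) were also lower. The call for Prkar1a was lost without day 0 replicate 2 and without day 7 replicate 2, and that for Sik2 held in 9 of 20 alternatives. Gnas, which encodes the stimulatory G protein of this receptor, had 7.54 ± 0.34, 6.13 ± 0.38 and 8.67 ± 1.55 RPKM at the 3 stages and did not pass (adjusted p = 0.407). It is uncertain because it shares exonic bases with Nespas and Gm20721 on the opposite strand.

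Vdr encodes the vitamin D receptor and lies at chr15:97854425-97910630. It was at 1.09, 1.30 and 1.07 RPKM in the day 0 libraries, at 2.28, 1.84 and 1.93 RPKM in the day 4 libraries, and at 3.65, 3.20 and 2.08 RPKM in the day 7 libraries. Day 0 lay below both later stages, and day 7 replicate 3 fell within the day 4 range, so day 4 and day 7 overlapped. Means were 1.15 ± 0.13, 2.02 ± 0.23 and 2.98 ± 0.81 RPKM, and the log2 fold change from day 0 to day 7 was 1.27 ± 0.20 (SE, 95% interval 0.87 to 1.68, limma adjusted p = 1.524e-06), with a mean 2.58-fold higher in RPKM. The gene was covered by only 47 to 88 reads per library at day 0, which limits the precision of those levels.

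The retinoid X receptor gene Rxra, whose product pairs with the vitamin D receptor, went the other way. It was at 40.1, 42.0 and 35.2 RPKM at day 0, at 28.1, 24.2 and 25.8 RPKM at day 4, and at 25.3, 21.9 and 23.0 RPKM at day 7. All libraries of the later stages lay below day 0 (log2 fold change -0.74 ± 0.15, adjusted p = 1.330e-04). The ratio of Rxra to Vdr, both in RPKM, accordingly was 34.0 ± 2.55 at day 0, 13.0 ± 0.55 at day 4 and 8.27 ± 2.39 at day 7. Rxrb was at 15.3 ± 3.29, 15.2 ± 0.44 and 14.3 ± 2.26 RPKM and did not pass (adjusted p = 0.744).

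Of the enzymes that act on vitamin D, those of the first step were read at about the level of Vdr at day 0, and those that make and remove the active form had few reads. The hydroxylase genes Cyp27a1 (0.936 ± 0.248, 0.903 ± 0.206 and 0.934 ± 0.087 RPKM at the 3 stages, adjusted p = 0.969) and Cyp2r1 (1.08 ± 0.20, 0.904 ± 0.226 and 0.768 ± 0.235 RPKM, adjusted p = 0.299) did not pass. Cyp27b1, which makes the active form of vitamin D, had between 1 and 19 reads in a library. Cyp24a1, which degrades active vitamin D and is a well known target of its receptor, had 0 to 2 reads. Of the 14 testable members of the vitamin D list of 20, 3 were higher, 2 were lower and 9 did not pass, with a median log2 fold change of -0.13. The 3 that rose were Bglap (6.78 ± 0.20), Spp1 (1.76 ± 0.19) and Tnfsf11. The list holds them as vitamin D target genes, and Bglap and Spp1 are also osteoblast matrix genes. Whether vitamin D raises or lowers them in these cells was not tested. Bglap, encoding osteocalcin, has near-identical neighbouring copies, so its level is uncertain. The coactivator gene Ncoa2 fell (-0.71 ± 0.16).

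Esr1, encoding estrogen receptor α, lies at chr10:4611593-5005614. By mean RPKM it had the lowest level of the 9 genes at every stage. RPKM divides by gene length, and Pthlh, at 1.6 kb against 13.7 kb for Esr1, had fewer reads in every library. On Esr1 the libraries held 17, 20 and 9 reads at day 0, 76, 137 and 136 reads at day 4, and 42, 46 and 44 reads at day 7. Its level was 0.0888, 0.122 and 0.0851 RPKM at day 0, 0.169, 0.269 and 0.276 RPKM at day 4, and 0.225, 0.315 and 0.206 RPKM at day 7. Both later stages lay above day 0 and overlapped each other. The log2 fold change from day 0 to day 7 was 1.07 ± 0.25 (SE, 95% interval 0.56 to 1.57, limma adjusted p = 7.633e-04). Esr2, encoding estrogen receptor β, had between 6 and 10 reads per library at day 0 and between 1 and 4 reads at day 7. Esr1 accounted for 33.9 ± 9.81% of the summed RPKM of both estrogen receptor genes at day 0, for 82.1 ± 12.6% at day 4 and for 82.9 ± 9.88% at day 7. The shares of day 0 (highest 45.1%) and day 7 (lowest 72.1%) did not overlap (exact permutation test, two-sided, p = 0.1), and they rest on few reads.

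Among other genes of the estrogen and androgen system, 12 of 20 could be tested, with 1 higher, 2 lower and a median log2 fold change of -0.22, and the symbol Sts was not found in the tables. Gper1, encoding a membrane receptor for estrogen, rose (1.13 ± 0.20, adjusted p = 1.298e-05), with 2.91 ± 0.82 RPKM at day 0, 11.4 ± 1.21 RPKM at day 4 and 6.52 ± 1.25 RPKM at day 7. Hsd17b4, encoding a peroxisomal enzyme that can oxidize estradiol, fell (-0.73 ± 0.16).

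Nr3c1, encoding the glucocorticoid receptor, lies on chromosome 18 at 39410545 to 39519421. It was at 17.03, 17.8 and 12.9 RPKM in the day 0 libraries, at 14.5, 14.0 and 15.6 RPKM at day 4, and at 16.6, 15.3 and 15.3 RPKM at day 7. The stages overlapped, and the lowest value was in day 0 replicate 3, the library with the largest share of its reads on the 4 features named above. The log2 fold change was -0.0021 (95% interval -0.32 to 0.31, limma adjusted p = 0.994, exact permutation p = 1.0), and none of the 20 alternatives called a difference, with log2 fold changes between -0.17 and 0.11. Nr3c1 made up between 98.2% and 99.4% of the summed RPKM of the glucocorticoid and mineralocorticoid receptor genes in all libraries, the other being Nr3c2.

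Few genes around this receptor passed by limma. Of 16 testable genes of the glucocorticoid list of 19, 1 was higher, 0 were lower and 15 did not pass by limma, with a median log2 fold change of -0.10. At an unadjusted p under 0.05, limma had 3 lower and 1 higher, and no matching count over all genes was made. At an adjusted p under 0.05, edgeR called 3 lower and 3 higher and DESeq2 called 2 lower and 4 higher, and both had among the lower genes Hsp90aa1 and Stip1, which encode chaperones of the receptor complex. The hormone-induced genes Fkbp5 (-0.27 ± 0.18, adjusted p = 0.278) and Tsc22d3 (0.21 ± 0.16, adjusted p = 0.350) did not pass. Dusp1, encoding a phosphatase that many stimuli induce, was the gene that rose (0.81 ± 0.18), and its level was highest at day 4, with 4.58 ± 0.56, 19.2 ± 2.48 and 8.23 ± 1.43 RPKM at the 3 stages. Hsd11b1, whose enzyme regenerates active glucocorticoid, was below the filter with at most 45 reads in a library.

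Ghr encodes the growth hormone receptor and lies at chr15:3317760-3583492. Its level was 3.92, 4.35 and 2.98 RPKM at day 0, 4.31, 4.22 and 4.51 RPKM at day 4, and 5.30, 4.95 and 4.80 RPKM at day 7. Day 7 lay above both earlier stages, which overlapped each other. The difference was small, with a log2 fold change of 0.43 ± 0.17 (SE, 95% interval 0.096 to 0.77, limma adjusted p = 0.0423), and the mean was 1.34-fold higher in RPKM. It was lost without day 0 replicate 1 (adjusted p = 0.0550) and without day 7 replicate 1 (0.169), replicate 2 (0.0996) or replicate 3 (0.107). Day 0 replicate 3 had the lowest value, and without it the log2 fold change was 0.28 and still passed (adjusted p = 0.0455).

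Gh, encoding the hormone, had 0 reads in all libraries. Jak2, encoding the kinase that both the growth hormone and the leptin receptor use, was at 12.7, 12.6 and 9.29 RPKM at day 0, at 13.2, 14.3 and 14.1 RPKM at day 4, and at 21.8, 19.6 and 17.9 RPKM at day 7, so that no 2 stages overlapped (0.78 ± 0.16, adjusted p = 1.131e-04). The transcription factor genes Stat5a (-0.03 ± 0.18) and Stat5b (-0.16 ± 0.16), the target Igf1 (0.10 ± 0.16) and the feedback inhibitor Socs2 (-0.19 ± 0.20) did not pass. Igf1 and Socs2 were at 12.0 ± 1.64 and 1.81 ± 0.17 RPKM at day 4, against 7.06 ± 1.39 and 0.975 ± 0.0995 RPKM at day 0. Of 14 testable genes in the list of 17, 3 were higher (Jak2, Igfbp3 at 0.77 and Irs1 at 0.42), 1 was lower (Shc1 at -0.54) and 10 did not pass, with a median of -0.04. The call for Irs1 held in 12 of 20 alternatives, and that for Shc1 was lost without day 7 replicate 2.

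Lepr encodes the leptin receptor, which is also a marker of stromal progenitors in adult marrow, and lies at chr4:101717404-101815352. It rose at each step, from 2.82, 1.64 and 1.76 RPKM at day 0 to 5.91, 6.66 and 6.34 RPKM at day 4 and 9.69, 10.3 and 9.54 RPKM at day 7. The 3 stages did not overlap, and the day 7 libraries were close to each other. Means were 2.07 ± 0.65, 6.30 ± 0.38 and 9.83 ± 0.38 RPKM, the log2 fold change from day 0 to day 7 was 2.25 ± 0.18 (SE, 95% interval 1.89 to 2.60, limma adjusted p = 6.18e-15), and the mean was 4.74-fold higher in RPKM. Among the 7 perivascular stromal markers, Cspg4 also rose (2.14), whereas Cxcl12 (-0.19) and Kitl (-0.11) did not pass and Pdgfrb fell (-1.27). Lep, encoding leptin, had 0 reads in all libraries.

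The promoters of Lepr are printed as those of the member with the next largest rise. RefSeq lists 2 start sites, and capitals again mark the GC box GGGCGG:
Lepr start 1 (chr4:101717157-101717406, plus strand): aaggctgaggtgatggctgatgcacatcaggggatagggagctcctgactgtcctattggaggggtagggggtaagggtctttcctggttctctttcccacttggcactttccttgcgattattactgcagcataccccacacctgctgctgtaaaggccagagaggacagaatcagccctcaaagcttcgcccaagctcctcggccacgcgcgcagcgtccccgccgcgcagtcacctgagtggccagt
Lepr start 2 (chr4:101717656-101717905, plus strand): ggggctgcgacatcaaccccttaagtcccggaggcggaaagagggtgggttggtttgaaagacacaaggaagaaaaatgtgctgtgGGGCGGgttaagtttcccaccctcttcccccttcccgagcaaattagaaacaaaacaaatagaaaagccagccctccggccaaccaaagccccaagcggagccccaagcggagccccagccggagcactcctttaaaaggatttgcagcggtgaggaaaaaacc
Each window had 10 CpG dinucleotides, with a GC content of 58.4% and 54.8%. The upstream window held none of the 5 motifs and the downstream window 1 GC box. RefSeq promoters of Vdr (1 start, 3 GC boxes), Pthlh (1 start, 4 GC boxes), Rarg, Ghr and Esr1 (2 starts each) were searched in the same way. The upstream window of Rarg held 3 GC boxes and 1 match to AGGTCA on either strand, and its second window held the RUNX core. In Ghr the first window held 2 GC boxes and the second 1 TATA box. Esr1 had no match to any of the 5 motifs in either window.

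Leprot, which encodes a leptin receptor trafficking protein and is the gene next to Lepr, was at 47.5 ± 8.96, 49.8 ± 3.74 and 46.4 ± 4.24 RPKM (-0.02 ± 0.16, adjusted p = 0.942), and Stat3, encoding the main transcription factor of this pathway, was at 27.6 ± 3.31, 24.8 ± 0.71 and 23.1 ± 3.15 RPKM (-0.25 ± 0.16, adjusted p = 0.226). Of 11 testable genes of the leptin list of 12, 3 were higher, 1 was lower and 7 did not pass, with a median of -0.02. Ptpn2, encoding a phosphatase that dampens JAK and STAT signalling, was higher (0.43 ± 0.17, held in 14 of 20 alternatives).

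Thra, encoding thyroid hormone receptor α, lies at chr11:98740638-98769006. It was at 22.3, 26.4 and 21.6 RPKM at day 0, at 18.6, 19.2 and 18.4 RPKM at day 4, and at 19.4, 17.6 and 16.8 RPKM at day 7. Both later stages lay below day 0 and overlapped each other. The log2 fold change of -0.38 ± 0.15 (SE, 95% interval -0.69 to -0.07) just missed the threshold (limma adjusted p = 0.0545). It was negative in all 20 alternatives and passed in 10 of them, for instance at -0.44 without day 0 replicate 3 (adjusted p = 0.00512). Thra shares 263 exonic bases (5.70% of its exonic length) with Nr1d1 on the opposite strand. Only unambiguous reads were counted, so reads of this stretch may be missing from both genes if strand was not used.

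Thrb, encoding the other thyroid hormone receptor, was at 0.794, 0.842 and 0.847 RPKM at day 0, at 3.12, 2.53 and 3.08 RPKM at day 4, and at 1.452, 1.80 and 1.454 RPKM at day 7. No 2 stages overlapped, and day 4 was highest (day 7 against day 0, 0.86 ± 0.20, adjusted p = 6.864e-04). Thra therefore made up 96.6 ± 0.34% of the summed RPKM of both genes before differentiation, 86.6 ± 1.54% after 4 days and 91.9 ± 1.16% after 7 days. Its shares did not overlap between any 2 stages (day 7 against day 0, exact permutation p = 0.1).

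Genes that carry or respond to thyroid hormone moved in both directions. Of 15 testable genes of 20, 4 were higher, 5 lower and 6 did not pass, with a median of -0.25. Hr, a known thyroid hormone target that encodes a corepressor, rose from 1.54 ± 0.21 RPKM at day 0 to 9.67 ± 0.52 RPKM at day 4 and 9.01 ± 1.52 RPKM at day 7 (2.49 ± 0.17, adjusted p = 8.798e-17). Nr1d1, a clock gene that overlaps Thra, rose (0.82 ± 0.20, adjusted p = 0.00106), with 2.03 ± 0.23, 2.13 ± 0.32 and 3.70 ± 0.46 RPKM at the 3 stages. The stretch shared with Thra is 8.55% of the exonic length of Nr1d1, so the same limit holds for its level. The deiodinase gene Dio3, whose product inactivates thyroid hormone, was lower (-0.64 ± 0.22, held in 16 of 20 alternatives). Dio2, whose product activates the hormone, was below the filter, with 1 or 2 reads per library at day 0, 66 to 144 at day 4 and 13 to 28 at day 7. The transporter gene Slc7a5 fell (-0.81 ± 0.16), with 162 ± 17.7, 115 ± 6.12 and 92.2 ± 6.58 RPKM. Slc16a10, another transporter gene, was higher (0.65 ± 0.23, 11 of 20 alternatives), and Slc7a8 was lower (-0.70 ± 0.27, 7 of 20 alternatives).

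**Figure D2:**
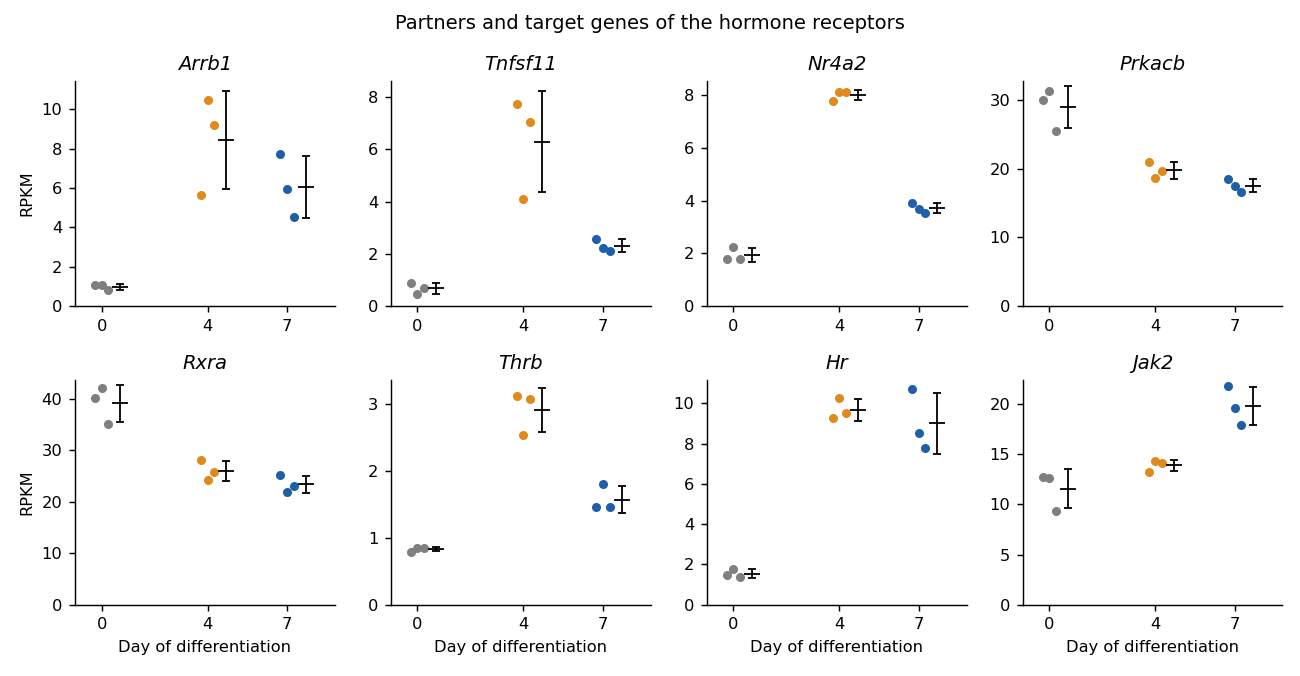
RPKM (linear axes from 0) of 8 partner or target genes against the day of differentiation; points are libraries, and the black bar is the mean with its SD (n = 3). Arrb1, Tnfsf11, Nr4a2, Thrb and Hr were above day 0 at both later stages, Prkacb and Rxra were below it, and Jak2 was highest at day 7 (19.8 RPKM).

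Rarg, encoding retinoic acid receptor γ, lies at chr15:102234938-102257517. It had the highest mean of the 9 genes at day 0 and was the member that fell. Its level was 34.0, 35.4 and 30.2 RPKM at day 0, 33.1, 31.0 and 33.9 RPKM at day 4, and 26.6, 22.3 and 26.1 RPKM at day 7. Day 0 and day 4 overlapped, and day 7 lay below both. The log2 fold change was -0.41 ± 0.15 (SE, 95% interval -0.72 to -0.10, limma adjusted p = 0.0357). The call was lost without day 0 replicate 1 (adjusted p = 0.106) or replicate 2 (0.163) and without day 7 replicate 1 (0.0685), replicate 2 (0.223) or replicate 3 (0.105), with log2 fold changes between -0.48 and -0.33 over all 6 omissions.

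Within the retinoic acid receptor family, Rarg made up 78.7 ± 1.95% of the summed RPKM before differentiation, 77.1 ± 1.24% after 4 days and 72.0 ± 3.45% after 7 days. The highest share at day 7 (75.9%) lay below the lowest at day 0 (76.4%, exact permutation p = 0.1). Rara was at 8.47 ± 0.54, 9.44 ± 0.35 and 9.52 ± 1.77 RPKM (0.15 ± 0.17, adjusted p = 0.525), and Rarb was at 0.486 ± 0.193 RPKM at day 0 and 0.228 ± 0.045 RPKM at day 7 (-0.69 ± 0.28, adjusted p = 0.0575). Among retinoid X receptors, Rxra fell from 72.0 ± 2.92% to 61.4 ± 2.62% of the family sum.

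**Figure D3:**
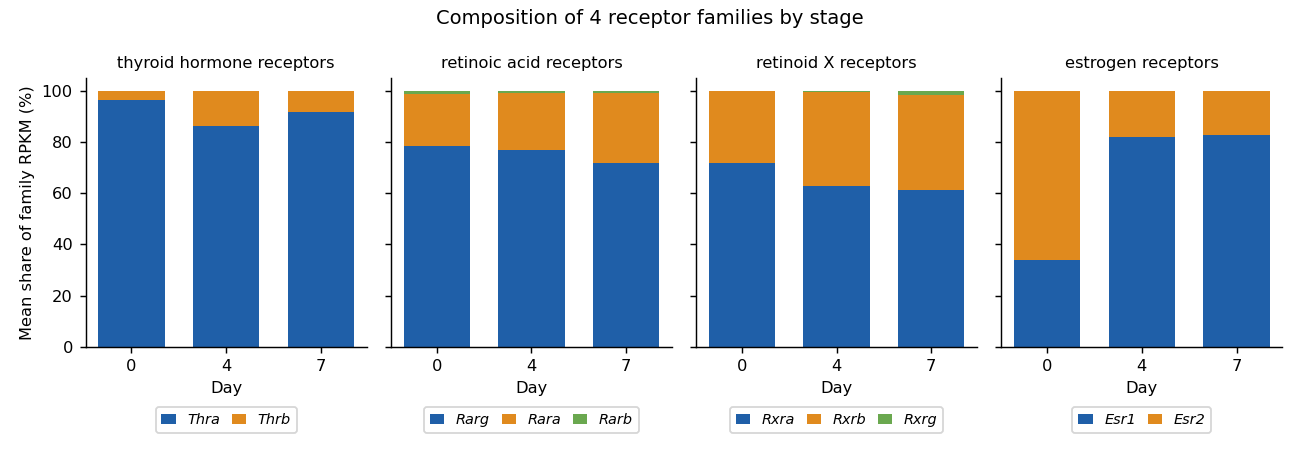
Mean share (%) of each gene in the summed RPKM of its receptor family at day 0, 4 and 7, over 3 libraries per stage. Rarg went from 78.7% to 72.0% and Rxra from 72.0% to 61.4% between day 0 and day 7, and Esr1 from 33.9% to 82.9% of a sum under 1 RPKM.

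Of 14 testable retinoic acid genes of 19, 4 were higher, 3 were lower and 7 did not pass, with a median of -0.10. Rbp4, encoding the carrier of retinol in plasma, rose from 0.452 ± 0.153 RPKM at day 0 to 4.81 ± 0.89 RPKM at day 4 and 7.70 ± 2.54 RPKM at day 7 (3.24 ± 0.25, adjusted p = 2.703e-15). Of the 3 retinoic acid synthesis genes, Aldh1a2 rose (2.16 ± 0.28), with 0.133 ± 0.067, 1.33 ± 0.35 and 1.38 ± 0.44 RPKM, whereas Aldh1a1 fell (-1.64 ± 0.24), with 3.40 ± 0.66, 1.31 ± 0.55 and 0.958 ± 0.414 RPKM. Aldh1a3 did not pass (0.014 ± 0.243, adjusted p = 0.975), with 0.835 ± 0.305, 1.454 ± 0.232 and 0.817 ± 0.172 RPKM. Rdh10, encoding the enzyme of the preceding step, also fell (-0.74 ± 0.19). The binding protein gene Crabp2 (0.67 ± 0.20) and Cyp26b1 (0.54 ± 0.18), which encodes a retinoic acid degrading enzyme, were higher. Crabp2 lost its call without day 7 replicate 2, and Cyp26b1 lost it without day 0 replicate 1 and without day 7 replicate 1 or 3.

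**Figure D4:**
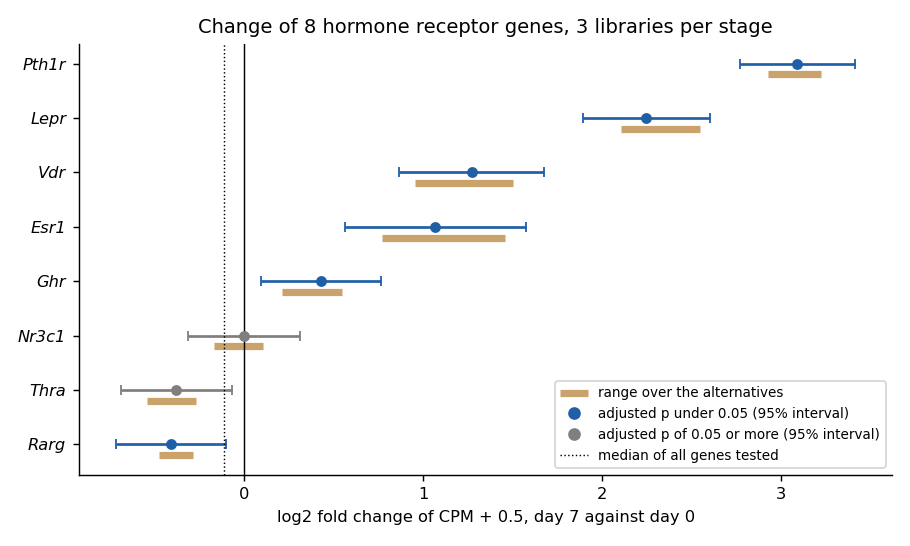
Log2 fold change of CPM + 0.5 from day 0 to day 7 for the 8 receptors tested by limma, with 95% intervals; bars beneath show the range of the estimate over the alternative analyses, and the dotted line is the median of all genes tested (-0.11). Pth1r (3.09) and Lepr (2.25) lie farthest from 0, and Nr3c1 lies at -0.0021.

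Read across stages, the libraries of day 7 and day 0 did not overlap for 8 of the 9 genes, with 6 higher and 2 lower (Thra and Rarg). Over all genes tested, 16.9% had all day 7 libraries above day 0 and 25.4% had them all below. Between day 0 and day 4, 5 genes were higher without overlap (Pth1r, Pthlh, Vdr, Esr1 and Lepr; 21.1% of all genes) and 1 was lower (Thra; 22.2% of all genes). Between day 4 and day 7, 3 were higher (Pth1r, Ghr and Lepr; 13.8% of all genes) and 1 was lower (Rarg; 24.6% of all genes). Comparisons with day 4 cross tables that were deposited separately. These comparisons share libraries, so they are not independent of each other.

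The order of levels per length shifted between day 0 and day 4. At day 0 the order was Rarg, Pth1r, Thra, Nr3c1, Ghr, Lepr, Vdr, Pthlh and Esr1, and the neighbours Rarg and Pth1r, Pth1r and Thra, and Pthlh and Esr1 overlapped. At days 4 and 7 Pth1r came before Rarg and Lepr before Ghr, the remaining order was as at day 0, and no neighbours overlapped. The sum of the 9 genes was between 95.2 and 120 RPKM at day 0, between 167 and 188 RPKM at day 4 and between 319 and 391 RPKM at day 7. Of this sum, Pth1r took between 25.9% and 31.2% at day 0, between 52.7% and 56.8% at day 4 and between 76.7% and 79.0% at day 7.

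Many hormone receptors outside the 9 genes were scarcely read. Of 33 further receptor genes, 15 passed the filter, of which 2 were higher, 3 were lower and 10 did not pass, with a median of -0.31. Glp1r, encoding the receptor for the gut hormone GLP-1, was higher (1.70 ± 0.27), with 0.469 ± 0.164, 1.86 ± 0.32 and 2.31 ± 0.71 RPKM, as was Thrb. Avpr1a, encoding a vasopressin receptor (-1.10 ± 0.28), and Npr2, encoding the receptor for C-type natriuretic peptide (-0.63 ± 0.15), were among those that were lower. Without day 0 replicate 2 the call for Avpr1a was lost. The calcitonin receptor gene Calcr, an osteoclast gene, had at most 4 reads in a library. Fshr, Casr and Crhr1 had 0 reads in all 9 libraries.

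**Figure D5:**
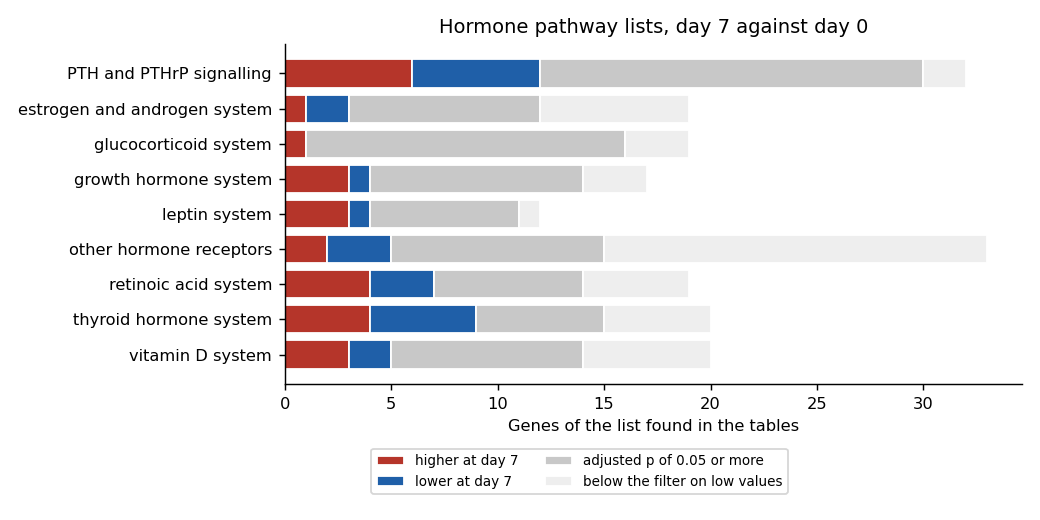
Number of genes in each of 9 hormone pathway lists that were higher or lower at day 7 than at day 0 (limma adjusted p under 0.05), did not pass, or fell below the filter on low values. PTH signalling had 6 genes in either direction, and the glucocorticoid list had 1 higher of 16 tested.

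Over all 9 lists together, which hold 164 genes with each counted once, 119 were tested, 23 were higher and 19 were lower, with a median log2 fold change of -0.12. Among all genes tested the shares were 12.6% and 18.6%, and the median was -0.11. Of the 42 list genes that passed, 29 passed in every alternative that could test them, and none changed direction in any of them. Of the 77 list genes that did not pass, 53 passed in at least 1 alternative, so many of these negative results depend on the processing.

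The genes whose log2 RPKM followed each member most closely over the 9 libraries were sought among 11528 genes, as a description. The libraries share stage, table and depth, so high correlations are common here. Pth1r was followed most closely by Carmil1 (r = 0.996) and Wwox (0.996). Lepr was followed most closely by Col11a2 (0.995, a fibrillar collagen gene that is also among the chondrocyte markers), Spns2 (0.992) and Gprc5c (0.991). For Vdr these were Myo1e (0.976), Tmem141 (0.969) and Tmtc1 (0.964), and for Ghr Vamp4 (0.985), Erp44 (0.975) and Tmem57 (0.975). Thra had Zfp13 (0.979), Sin3a (0.978) and Gsk3b (0.967), and Rarg had Sesn2 (0.990), Vrk3 (0.984) and Cers4 (0.983). Nr3c1 had Flad1 (0.971), D6Wsu163e (0.967) and Fxr2 (0.958). For the genes with few reads the nearest were Gpi1 (0.959), Nampt (0.957) and the antigen presentation gene H2-Ab1 (0.956) for Esr1, and Fchsd2 (0.978), Erp44 (0.975) and Ccdc130 (0.970) for Pthlh. With CPM in place of RPKM, 0 of the 3 genes nearest to Pthlh were still among its nearest 3. Pth1r and Lepr correlated with each other at r = 0.962.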

How the data were processed

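RNA-seq of 9 libraries was analysed, 3 per stage, grouped by their sample titles. Per the study's methods, the authors aligned reads to the Ensembl release 76 mouse assembly (GRCm38) with STAR 2.0.4b. They took gene counts with featureCounts from reads that aligned uniquely and were unambiguous. The authors deposited CPM values, in which reads are scaled to the library total. RPKM, also deposited by the authors, add a division by gene length. All 18 value columns matched a sample (0 unmatched). Whether counting used strand is not given in the sources used here. Ribosomal RNA was depleted with Ribo-Zero.

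The 276 and 273 repeated lines of the 2 sets of tables were identical and used once. In every library 100% of CPM values were whole multiples of 1 read within a tolerance of 0.01, which gave the reads quoted. Intervals of counts would cover counting error only. Levels are RPKM. The test of day 7 against day 0 was limma-trend (limma 3.58.1, R 4.3.3) on log2(CPM + 0.5) in 12712 genes that averaged 1 CPM or more, with Benjamini-Hochberg adjustment. Prior and residual degrees of freedom were 42.9 and 4, so p-values rest mainly on the trend over genes. The study calls the libraries of a stage biological replicates. No replicates were duplicates: a chi-square test of their reads gave 11.7 to 203 per degree of freedom.

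Alternatives were pseudocounts of 0.1 and 1, no filter, other scalings, the RPKM table, quality weights, the study's TMM with voomWithQualityWeights, edgeR 4.0.16 and DESeq2 1.42.0 on the recovered reads, a replicate block, robust variances and leaving out each library. The omission of 2 libraries together and CPM over reads outside 4 features were added after the data were seen. The members and the lists were chosen with earlier results of these data known. The text names all members, the 3 genes most like each, the 3 largest rises and falls past the threshold in each list, and a fixed set of partners. Gnaq, Prkar1a, Nr4a1, Crem, Cyp27a1, Cyp2r1, Aldh1a3, Sik2, Nr4a2, Rgs2, Cyp26b1, Slc16a10, Hsp90aa1, Stip1, Calcr, Fshr, Casr, Crhr1, the markers and the families were named after their values were seen. Some genes that this rule would name are not reported here. Coordinates are those of GENCODE M21 on GRCm38, and promoter sequences are from RefSeq (GRCm38.p6). Promoters on chromosome 18, where Nr3c1 lies, were not used, and 13 promoters for 7 of the members were searched.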

Additional observations from a re-analysis of the deposited data

How the results depend on the processing

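Pth1r, Vdr and Lepr passed in 20 of 20 alternatives and Esr1 in 19 of 19, and Nr3c1 passed in 0 of 20. Over all genes the median change (log2) moved with median-of-ratios scaling from -0.11 to -0.0067, with the quality weights to -0.20, and the share of calls that were higher went from 40.3% to 52.1% and 27.5%. Genes called higher numbered 2843 with that scaling, 2825 with TMM, 2818 with edgeR, 2581 with DESeq2 and 3148 with TMM and voomWithQualityWeights, against 1602, and genes called lower numbered 5861 with quality weights, 3786 outside the 4 features and 4242 without day 0 replicate 3 and day 7 replicate 2, against 2369. Leaving out 1 library gave 1151 to 1631 higher and 1521 to 4699 lower, the latter without day 0 replicate 3. List genes called lower numbered 60 with quality weights, 37 outside the 4 features, 37 without the 2 libraries and 13 to 43 with 1 library left out, and those called higher numbered 35 with TMM and voomWithQualityWeights. Members called lower numbered 2 under the scalings, count models, quality weights, robust variances, the reads outside the 4 features and the omission of 2 libraries, 0 in the RPKM table, and 0 to 2 with 1 library left out; members called higher numbered 3 in the RPKM table, where Esr1 was below the filter.

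Thra passed outside the 4 features (-0.41), with DESeq2 (-0.27), with edgeR (-0.28), with TMM (-0.27), with median-of-ratios scaling (-0.27), with TMM and voomWithQualityWeights (-0.29), with quality weights (-0.54), with robust variances (-0.38) and with the 2 libraries left out (-0.42); with 1 library left out it ranged from -0.44 to -0.29. Ghr did not pass in the RPKM table (0.43, adjusted p = 0.0912) or among genes with any reads (0.43, adjusted p = 0.0590), and ranged from 0.28 to 0.54 with 1 library left out. Rarg did not pass in the RPKM table (-0.41, adjusted p = 0.0603) and ranged from -0.48 to -0.33. Pthlh passed when genes with any reads were tested (0.90, adjusted p = 0.00858). The cause of these changes was not tested.

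Same-numbered deviations of day 0 and day 7 libraries from their stage means correlated at -0.017, -0.18 and -0.44. The highest correlation, 0.356, was between day 0 replicate 3 and day 7 replicate 2, which had the largest shares of reads on the 4 features. Differences between libraries of this kind can hide a pairing, so whether replicate numbers pair the libraries cannot be decided from these values. A fit with the replicate number as a block called 1463 genes higher and 1950 lower, and 4 members higher and 0 lower, with Ghr at 0.43 (adjusted p = 0.0821) and Rarg at -0.41 (adjusted p = 0.0769). At 9 to 20 reads, depth limits Esr1 at day 0, and it limits Pthlh throughout.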
